A study of Mus musculus with 35 samples.

Results

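The hippocampal transcriptome was examined 8 h after the onset of pilocarpine-induced seizures, a time after the phase of status epilepticus (SE), in 5 of the 19 mRNA-seq libraries of the series. The members were chosen by their labels alone: the 2 libraries of SE mice and the 3 libraries of control mice killed at 8 h, with all genes of the count table. The mice were male and female C57BL/6J animals of 6 to 7 weeks, with no engineered allele. SE mice received pilocarpine (350 mg/kg in the labels), a muscarinic agonist that starts limbic seizures, whereas control mice received the vehicle. The study's methods give this as a first dose, with smaller doses added until sustained seizures were reached, so total doses may differ between mice. Both groups had been given scopolamine beforehand, as the study's methods describe, to spare the periphery, so the controls are not untreated mice. Each library came from the poly(A) RNA of 1 left hippocampus, a bulk tissue in which fewer cells of a type and less RNA per cell cannot be told apart. The 2 SE libraries (1 female, 1 male) and control replicates 2 (female) and 3 (male) carry the batch label G317, and control replicate 1 (male) is the only library with the label G511.

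Some hours after a seizure the first wave of immediate-early gene transcription has largely passed, and the genes it turns on in neurons come to the fore. These late-response genes encode secreted proteins, receptors and synaptic proteins that alter the excitability of the circuit. In parallel, cytokines of the interleukin-6 family act on astrocytes through the receptors OSMR and LIFR, the shared chain GP130, the kinase JAK and the transcription factor STAT3, and reactive astrocytes raise GFAP, vimentin and acute-phase proteins. Oxidative stress is handled by NRF2, which binds DNA together with small MAF proteins, while BACH1 competes for the same partners and represses the same genes.

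The 5 libraries differed in depth and in make-up. Totals were 8503816 and 28465548 counts after SE, against 14415658, 11762428 and 12086118 in control replicates 1, 2 and 3. Levels are given below as CPM, counts scaled to library size and TMM factor. Transcripts of the mitochondrial genome took 3.96% and 5.03% of counts after SE, against 7.97%, 11.3% and 13% in controls. Genes with under 1 kb of exon took 1.7% and 1.54% after SE, against 1.39%, 2.24% and 2.64% in controls, so that control replicate 1 lay with the SE libraries in this measure. Counts of the X-inactivation transcript Xist and of the Y-linked gene Ddx3y fitted the stated sex in all 5 libraries. Markers of hippocampal tissue were present in every library, with summed levels of 481 and 579 CPM after SE, against 414 to 571 CPM in controls, for 10 markers of dentate granule cells, and of 1220 and 1117 CPM, against 999 to 1031 CPM, for 8 markers of CA1 pyramidal cells.

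With all 5 libraries, no gene of 15610 tested (0%) passed an adjusted p of 0.05 in edgeR's quasi-likelihood test, although 1478 genes (616 higher, 862 lower) lay under 0.05 before adjustment. The less strict likelihood ratio test of edgeR passed 27 genes as higher (0.173%) and 62 as lower (0.397%). DESeq2 passed 20 as higher and 76 as lower. Within batch G317 alone, that is without control replicate 1, the quasi-likelihood test called 878 genes higher (5.71% of 15369) and 1187 lower (7.72%). Both SE libraries lay above all 3 controls for 2149 genes (13.8% of 15610) and below them for 2191 (14%). Both conditions together, a call in batch G317 and no overlap with any control, held for 439 higher genes (2.81%) and 568 lower genes (3.64%). In what follows, "rose" and "fell" refer to calls within batch G317, which rest on 2 mice a group, and the level in control replicate 1 is given beside them. Counts of rises and falls in the gene lists are to be read against 5.71% and 7.72% over all genes. Counts of members without overlap are to be read against 13.8% and 14%.

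The position of control replicate 1 was measured gene by gene. It lay nearer to the SE mean than to the mean of the other controls for 692 of the 878 genes that rose (78.8%) and for 927 of the 1187 that fell (78.1%), against 59.3% of all genes tested. Batch and control replicate 1 cannot be told apart, since it is the only G511 library of this time. Leaving out control replicate 2 gave 18 calls (14 higher, 4 lower) and leaving out control replicate 3 gave 9 (2 higher, 7 lower), while the batch G317 count was 1105 without control replicate 3 and 3200 without SE replicate 2. Scaled by library size alone, the split within batch G317 was 2198 higher and 726 lower, and the median of all genes stood at a log2 fold change of 0.18 in place of 0.00.

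Calls among effectors of neuronal activity were higher only. Of 29 activity-regulated neuronal effectors tested, 9 rose and 0 fell within batch G317, and both SE libraries were above all controls for 14 and below them for 1. Their median log2 fold change was 0.26 in the 5 libraries and 0.33 in batch G317, against -0.01 and 0.00 over all genes tested. For the 9 that rose, control replicate 1 was nearer to SE in 4.

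The gene of the lists with the smallest p in the 5 libraries was Nptx2 (ENSMUSG00000059991, chromosome 5, 145306756 to 145318347, plus strand, NCBIM37), which encodes neuronal pentraxin 2, a secreted protein that gathers AMPA receptors at excitatory synapses. It had 65.3 and 51.5 CPM after SE, against 16.8, 14.7 and 19.4 CPM in controls, and the groups lay far apart. Its log2 fold change was 1.78 ± 0.20 (SE of the estimate, n = 2 and 3) with an adjusted p of 0.076 in the quasi-likelihood test and 2.35e-10 in the likelihood ratio test. Within batch G317 it was 1.77 ± 0.18 (adjusted p = 0.00028, quasi-likelihood test).

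Other effectors rose as well. Bdnf, the neurotrophin of activity-dependent plasticity, had 74.6 and 51.7 CPM after SE, against 44.1, 31.6 and 27.1 CPM in controls (log2 fold change 1.09 ± 0.18 in batch G317, adjusted p = 0.0037, quasi-likelihood test). Pcsk1, the prohormone convertase that cleaves neuropeptide precursors in dense-core granules, had 31.1 and 20.8 CPM, against 14.1, 12.4 and 7.89 CPM (1.33 ± 0.27). For both genes SE replicate 1 was the higher of the SE mice and control replicate 1 the highest of the controls. Inhba, the activin A subunit, was low but apart, with 6.16 and 4.32 CPM after SE, against 2.94, 1.24 and 1.38 CPM in controls (1.97 ± 0.46). Homer1, a postsynaptic scaffold gene whose short form is induced by activity, had 144 and 128 CPM against 105, 87.5 and 77.9 CPM (0.71 ± 0.11), and Sorcs3, a sorting receptor at synapses, had 77.5 and 64.7 CPM against 51.8, 41.2 and 41.1 CPM (0.78 ± 0.13). None of the genes named so far in this paragraph overlapped between the groups. Ptgs2 and Syt4, which also rose within batch G317 (log2 fold changes 0.63 and 0.46), did overlap once control replicate 1 was counted.

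**Figure D1:**
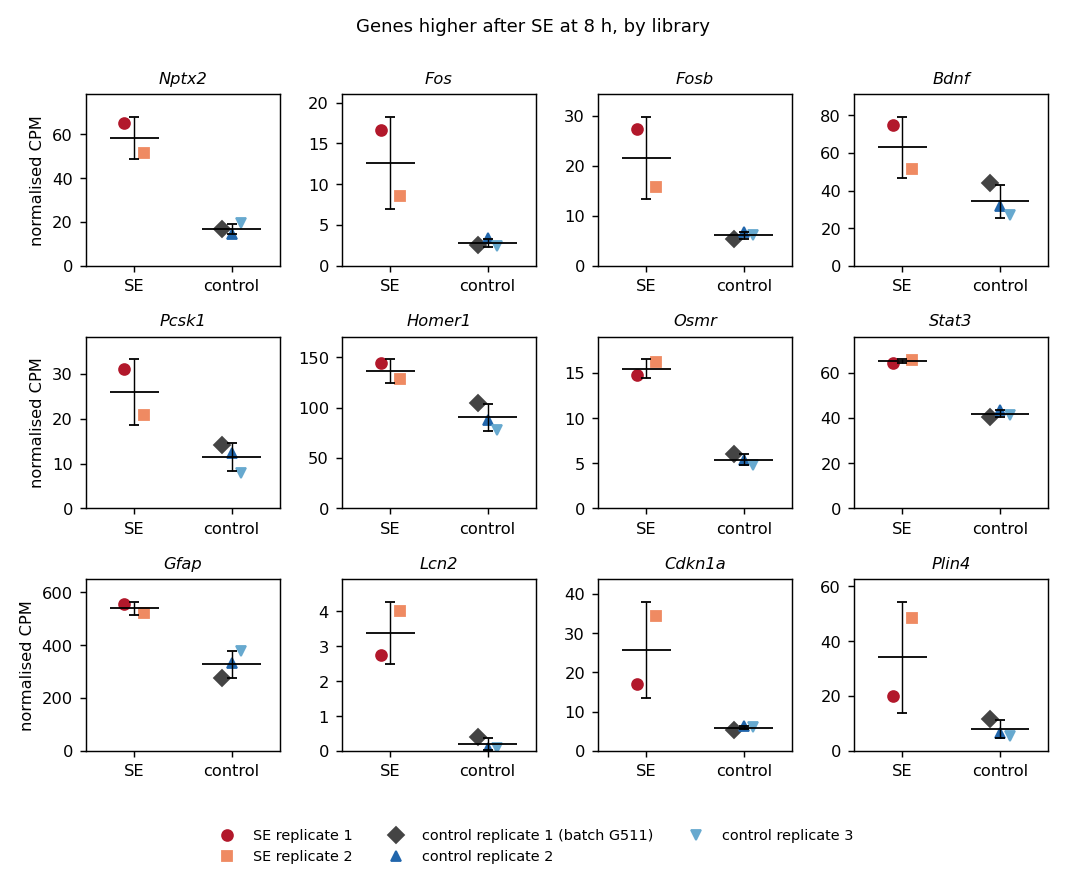
Normalised counts (CPM, vertical axes starting at 0) of 12 genes in the 2 SE and 3 control libraries at 8 h. Points are single mice, horizontal lines are group means and bars are ± 1 SD. Both SE libraries lay above all 3 controls in each of the 12 panels, and Cdkn1a and Plin4 were higher in SE replicate 2 (34.5 and 48.4 CPM) than in SE replicate 1 (17.2 and 19.8 CPM).

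Immediate-early transcription factors were mixed. Of 25 tested, 4 rose (Fos, Fosb, Ier5 and Klf10) and 3 fell (Nr4a2, Jund and Per1) within batch G317. Klf10 is named here only because it completes the count. Fos, a component of the AP-1 factor, had 16.6 and 8.6 CPM after SE, against 2.54, 3.36 and 2.48 CPM in controls (log2 fold change 2.15 ± 0.35 in the 5 libraries). Fosb, a gene of the same family, had 27.4 and 15.7 CPM, against 5.35, 6.81 and 6.06 CPM (1.82 ± 0.28). For both of them SE replicate 1 was the higher SE library, and every control was lower than both. The stress-responsive gene Ier5 had 58.1 and 37.4 CPM after SE, against 22.8, 27.3 and 21.3 CPM in controls.

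Among those that fell, Nr4a2, an orphan nuclear receptor induced by calcium and cAMP, was below every control. It had 59.2 and 69.5 CPM after SE, against 82.1, 109 and 106 CPM in controls (log2 fold change -0.74 ± 0.12 in batch G317). Jund and Per1 overlapped between the groups once control replicate 1 was counted. Jund had 104 and 90.2 CPM after SE, against 49.3, 124 and 142 CPM in controls, and Per1 had 94.5 and 106 CPM, against 80.1, 128 and 155 CPM. In the likelihood ratio test 4 of the 25 genes were called higher and 0 lower.

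Among feedback regulators of the MAP kinase cascade, calls were few and higher only. Of 18 tested with 5 libraries, 17 were tested within batch G317, where 4 rose (Spry2, Dusp5, Spred1 and Dusp16) and 0 fell. Spry2, a membrane-bound inhibitor of growth factor signalling, had 59.6 and 49.2 CPM after SE, against 34.3, 29.6 and 33.9 CPM in controls (log2 fold change 0.76 ± 0.15 in batch G317). Dusp5, a nuclear phosphatase of ERK, had 24.9 and 19.6 CPM, against 12.2, 12.2 and 11.7 CPM (0.88 ± 0.21). These groups did not overlap, whereas Spred1 and Dusp16 were as high in control replicate 1 (154 and 16.4 CPM) as after SE.

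Proximal promoters were searched for short motifs of the factors described here. Windows were found for 16 of 18 genes looked up, 11 of the 16 (among them Fos, Fosb, Cdkn1a, Stat3, Fkbp5 and Plin4) held none of the 4 motifs, and the 4 genes shown were chosen because their window held a match. The windows run from 250 bases before to 50 bases after the gene start (RefSeq, build GRCm38.p6), 5′ to 3′ on the gene's strand. Capitals mark the motif found: CRE (TGACGTCA, bound by CREB) in Pcsk1, AP-1 (TGANTCA, bound by FOS and JUN) in Osmr, STAT (TTCNNNGAA) in Gfap and GRE (ACANNNTGT, bound by steroid receptors) in Lcn2. Both strands were searched.
Pcsk1, chr13:75089607-75089906, plus strand: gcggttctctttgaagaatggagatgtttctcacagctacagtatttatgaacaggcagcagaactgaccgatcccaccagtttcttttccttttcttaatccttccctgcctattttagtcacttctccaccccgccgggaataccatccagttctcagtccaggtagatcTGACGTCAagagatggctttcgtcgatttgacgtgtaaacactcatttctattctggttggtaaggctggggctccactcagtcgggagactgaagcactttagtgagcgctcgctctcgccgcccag
Osmr, chr15:6874264-6874563, minus strand: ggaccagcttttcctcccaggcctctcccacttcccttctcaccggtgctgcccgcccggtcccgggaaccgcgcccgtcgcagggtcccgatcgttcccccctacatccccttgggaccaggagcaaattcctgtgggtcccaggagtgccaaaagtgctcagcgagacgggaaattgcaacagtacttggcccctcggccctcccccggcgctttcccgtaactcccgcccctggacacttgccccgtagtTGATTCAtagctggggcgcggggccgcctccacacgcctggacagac
Gfap, chr11:102897151-102897450, minus strand: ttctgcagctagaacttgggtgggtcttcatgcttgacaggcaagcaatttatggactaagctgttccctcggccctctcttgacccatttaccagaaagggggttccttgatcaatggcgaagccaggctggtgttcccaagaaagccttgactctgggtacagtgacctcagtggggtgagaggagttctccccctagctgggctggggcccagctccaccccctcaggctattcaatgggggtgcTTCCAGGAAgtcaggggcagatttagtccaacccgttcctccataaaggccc
Lcn2, chr2:32387690-32387989, minus strand: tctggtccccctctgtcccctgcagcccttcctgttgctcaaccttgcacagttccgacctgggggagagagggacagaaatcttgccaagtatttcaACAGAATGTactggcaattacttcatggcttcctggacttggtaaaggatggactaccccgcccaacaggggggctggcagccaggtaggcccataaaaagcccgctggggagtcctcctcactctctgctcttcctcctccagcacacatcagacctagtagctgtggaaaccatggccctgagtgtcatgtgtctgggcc
The CRE motif lay 78 bases before the start of Pcsk1, the AP-1 motif 4 bases after that of Osmr, the STAT motif 2 bases before that of Gfap and the GRE motif 152 bases before that of Lcn2. Shares were counted by gene, with a match in any of its windows. Among 10047 genes tested at 8 h that had a window, 3.53% held the CRE motif, 6.11% AP-1, 8.34% STAT and 5.37% GRE. In the 313 of these genes that rose without overlap the shares were 4.47%, 5.43%, 4.79% and 4.47%. In the 341 that fell without overlap they were 4.69%, 4.69%, 7.62% and 3.52%. A match is a run of letters, not a shown binding site. Of 19 activity-regulated effectors with a window, 3 held the CRE motif, 2 AP-1, 4 STAT and 1 GRE.

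Interleukin-6 family signalling was represented by its receptor chain and transcription factor. Of 24 JAK-STAT genes tested, 5 rose (Osmr, Stat3, Ptpn11, Socs5 and Lifr) and 1 fell (Cntfr) within batch G317, and both SE libraries were above all controls for 10 and below them for 1. Osmr, the oncostatin M receptor (ENSMUSG00000022146, chromosome 15, 6763577 to 6824313, minus strand, NCBIM37), had 14.7 and 16.2 CPM after SE, against 6.01, 5.39 and 4.77 CPM in controls. The log2 fold change was 1.52 ± 0.23 with 5 libraries and 1.60 ± 0.25 in batch G317 (adjusted p = 0.0027, quasi-likelihood test). Stat3 had 64.3 and 65.6 CPM, against 40.4, 43.5 and 41.4 CPM (0.61 ± 0.12 in batch G317), with a very narrow spread in both groups. Ptpn11, the phosphatase SHP2 that joins cytokine receptors to the MAP kinase cascade, had 213 and 240 CPM, against 184, 151 and 131 CPM. Control replicate 1 reached the SE range for the suppressor Socs5 (107 CPM, against 108 and 100 CPM after SE), for the receptor Lifr (92.5 CPM, against 74.1 and 92.0 CPM) and for the receptor Cntfr (51.7 CPM, against 66.9 and 55.6 CPM). The other STAT genes named by the study, Stat5a and Stat5b, were above all controls without passing the test, with 2.86 and 3.54 CPM of Stat5a after SE, against 1.00, 2.03 and 1.93 CPM in controls.

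Reactive astrocyte genes were higher as a list. Of 20 markers 16 were tested, 6 rose (Gfap, Vim, Lcn2, Osmr, Aspg and Fkbp5) and 0 fell, both SE libraries were above all controls for 9 and below them for 0, and the median log2 fold change was 0.61 in 5 libraries and 0.59 in batch G317. Only 1 of the 6 had control replicate 1 nearer to SE. Summed over the list, levels were 843 and 813 CPM after SE, against 475, 513 and 541 CPM in controls. Gfap, the intermediate filament of astrocytes, had 556 and 520 CPM, against 275, 332 and 376 CPM (log2 fold change 0.72 ± 0.17 in 5 libraries). Vim, a second filament gene of reactive astrocytes, had 64.6 and 51.0 CPM, against 37.6, 36.0 and 26.1 CPM (0.79 ± 0.21). Both genes were higher in each SE mouse than in any control.

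The acute-phase protein lipocalin 2 was near background in controls. Lcn2 had 2.75 and 4.01 CPM after SE, against 0.40, 0.09 and 0.09 CPM in controls, which is 143 counts in the SE libraries, against 6 counts in control replicate 1 and 2 counts in control replicates 2 and 3 together. Within batch G317 the ratio of these counts per library size was 41.2, with a 95% exact Poisson interval from 11.2 to 344 that covers counting error only. Aspg, an asparaginase that marks reactive astrocytes in mice, had 6.93 and 4.69 CPM, against 0.87, 1.06 and 1.56 CPM. Other markers of the list did not pass the test. Serpina3n had 58.3 and 56.5 CPM after SE, against 36.8, 46.0 and 48.7 CPM in controls, and Cd44 had 13.1 and 9.62 CPM, against 7.22, 8.31 and 8.26 CPM.

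Classical cytokines were scarcely measurable. Of 30 cytokine, chemokine and NF-kB genes, 15 had too few counts to be tested, among them Il1b, Il6, Tnf and Ccl2, and of the rest 0 rose and 2 fell (Cx3cl1 and Cxcl14). Cx3cl1, the neuronal ligand of the microglial receptor CX3CR1, had 623 and 503 CPM after SE, against 493, 763 and 906 CPM in controls, so that control replicate 1 was below both SE libraries. Of 18 complement and acute phase genes tested, 2 rose and 1 fell within batch G317. Both SE libraries were above all controls for 5 of the 18 and below them for 1. C4b had 48.0 and 36.7 CPM, against 24.0, 24.3 and 16.8 CPM (log2 fold change 1.03 ± 0.21 in batch G317, adjusted p = 0.0094, quasi-likelihood test), while C1qc had 29.2 and 24.9 CPM, against 24.2, 37.4 and 49.8 CPM (-0.71 ± 0.18). The levels of C4b did not overlap and those of C1qc did.

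**Figure D2:**
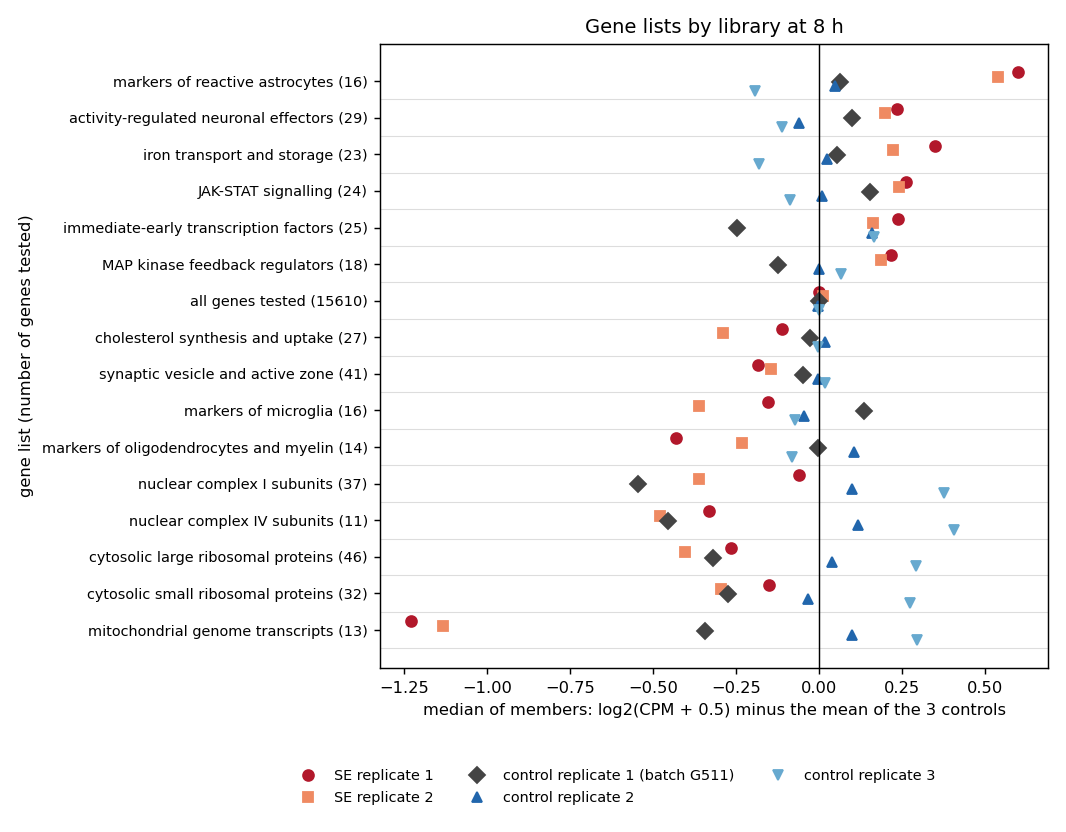
Median over the tested members of 15 gene lists and over all genes, per library, as log2(CPM + 0.5) minus the mean of the 3 controls. Both SE libraries stand right of all controls for reactive astrocyte markers (0.60 and 0.54) and left of them for mitochondrial genome transcripts (-1.23 and -1.13), whereas control replicate 1 falls among or beyond the SE libraries for complex I, complex IV and ribosomal proteins.

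Few genes of the p53 and glucocorticoid responses were called, though 15 of 18 and 16 of 20 had a positive log2 fold change in 5 libraries. The list medians were 0.14 and 0.13 in 5 libraries and 0.21 and 0.22 in batch G317, against -0.01 and 0.00 over all genes tested. Cdkn1a, the cell cycle inhibitor p21 (ENSMUSG00000023067, chromosome 17, 29227924 to 29237667, plus strand, NCBIM37), had 17.2 and 34.5 CPM after SE, against 5.41, 6.28 and 6.06 CPM in controls (log2 fold change 2.14 ± 0.30, adjusted p = 0.125 in the quasi-likelihood and 7.44e-07 in the likelihood ratio test). It was the 1 gene of 18 tested p53 targets that rose, and 0 fell. Of 20 glucocorticoid receptor targets 2 rose (Plin4 and Fkbp5) and 1 fell (Per1), against 5.71% and 7.72% over all genes tested. Plin4, a lipid droplet protein, had 19.8 and 48.4 CPM after SE, against 11.6, 6.45 and 5.51 CPM in controls (2.53 ± 0.36 in batch G317), and Fkbp5, a co-chaperone of the glucocorticoid receptor, had 70.1 and 98.6 CPM, against 61.6, 37.9 and 39.8 CPM (1.12 ± 0.16). SE replicate 2 was the higher of the SE mice for all of Cdkn1a, Plin4 and Fkbp5, the reverse of Fos and Fosb.

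Among NRF2 and glutathione genes calls went both ways. Of 31 tested 3 rose (Bach1, Mafg and Srxn1) and 6 fell. The repressor Bach1 had 24.9 and 17.2 CPM after SE, against 14.4, 10.2 and 8.26 CPM in controls (log2 fold change 1.17 ± 0.25 in batch G317). Mafg, which encodes a small MAF partner of both factors, had 96.2 and 91.5 CPM, against 72.9, 53.9 and 58.4 CPM (0.73 ± 0.11). The related Maff was low, with 2.75 and 3.03 CPM, against 0.33, 0.53 and 0.92 CPM, and did not pass within batch G317 (adjusted p = 0.057, quasi-likelihood test) but passed the likelihood ratio test with 5 libraries (adjusted p = 0.012). All 3 of these regulators were above every control.

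On the side of the enzymes, catalase (Cat) had 48.6 and 47.7 CPM after SE, against 60.4, 81.3 and 78.3 CPM in controls (-0.74 ± 0.12), and the glutathione transferase Mgst3 had 42.3 and 37.2 CPM, against 46.0, 85.2 and 91.9 CPM (-1.17 ± 0.12). For Mgst3 control replicate 1 lay close to the SE libraries. The glutathione transferase Gstm1 overlapped, with 136 and 118 CPM, against 134, 202 and 230 CPM. Control replicate 1 was nearer to SE for 9 of the 9 genes called in this list, risers included. Srxn1, which restores oxidised peroxiredoxins, had 83.2 and 78.8 CPM, against 69.1, 53 and 61.1 CPM.

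Calls in other stress lists were few or went both ways. Of 20 ATF4 targets 1 rose and 0 fell, of 19 endoplasmic reticulum chaperones 4 rose and 1 fell, and of 18 heat shock proteins 2 rose and 3 fell. The shares over all genes tested were 5.71% higher and 7.72% lower. Hspa5, the chaperone BiP, had 214 and 164 CPM after SE, against 189, 130 and 114 CPM in controls, so that control replicate 1 lay between the SE libraries. Of the metallothioneins, which bind zinc and copper, Mt3 and Mt1 fell within batch G317 and Mt2 did not pass. Mt3 had 195 and 131 CPM, against 106, 604 and 826 CPM (log2 fold change -2.14 ± 0.20), and Mt1 had 286 and 248 CPM, against 184, 454 and 504 CPM. Mt2 had 185 and 161 CPM, against 83.1, 213 and 222 CPM (-0.34 ± 0.12, adjusted p = 0.075, quasi-likelihood test). For all 3 genes control replicate 1 was below the SE libraries.

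Calls were mostly higher among iron genes and mostly lower among sterol genes. Of 23 iron genes tested 5 rose (Tfrc, Ireb2, Fbxl5, Slc39a14 and Slc11a2) and 1 fell (Hmox2). Tfrc, the transferrin receptor, had 128 and 135 CPM after SE, against 113, 76.9 and 70.4 CPM in controls (log2 fold change 0.83 ± 0.11 in batch G317, adjusted p = 0.0011, quasi-likelihood test). The iron sensor Ireb2, which binds the transferrin receptor mRNA, had 70.2 and 77.5 CPM, against 78.6, 37.2 and 42.4 CPM, and overlapped. Slc11a2, the divalent metal transporter DMT1, had 65.9 and 58.5 CPM, against 47.7, 46.8 and 43.4 CPM, without overlap. Transferrin itself (Trf) was low, at 0.99 and 1.46 CPM, against 2.41, 3.27 and 3.03 CPM, and did not pass within batch G317.

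Of 27 genes of cholesterol synthesis and uptake 1 rose (Abca1) and 6 fell, and both SE libraries were below all controls for 8. Sc4mol, the sterol C4-methyl oxidase, had 45.5 and 39.3 CPM after SE, against 67.6, 65.3 and 60.6 CPM in controls (log2 fold change -0.58 ± 0.13), without overlap. The lipid carrier Apoe had 1016 and 1005 CPM, against 969, 1867 and 2037 CPM, where control replicate 1 was below both SE mice. The efflux transporter Abca1 had 54.9 and 82.4 CPM, against 55.5, 44.0 and 34.5 CPM. Among 21 clock genes 3 rose and 7 fell. The repressors Per3 (71.1 and 77.6 CPM, against 60.4, 51.0 and 51.8 CPM) and Cry1 (17.1 and 16 CPM, against 12.1, 9.19 and 10.6 CPM) were above all controls, and the output factor Hlf was below them (130 and 141 CPM, against 184, 204 and 186 CPM). Nr1d1 and Dbp fell within batch G317 but overlapped with control replicate 1.

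Most transcripts of the mitochondrial genome fell. Its 13 protein-coding transcripts encode core subunits of the respiratory chain and ATP synthase. Of the 12 that were tested within batch G317, 10 fell and 0 rose. Both SE libraries were below all 3 controls for 10 of the 13. The median log2 fold change was -1.23 in 5 libraries and -1.48 in batch G317, and 7 passed as lower in the likelihood ratio test. Together they had 30617 and 36378 CPM after SE, against 67894, 96530 and 115670 CPM in controls. mt-Nd2, a complex I subunit, had 3107 and 3662 CPM, against 8454, 12184 and 14263 CPM (log2 fold change -1.78 ± 0.23 in 5 libraries, adjusted p = 0.121, and -1.97 ± 0.12 in batch G317, adjusted p = 2.7e-05, quasi-likelihood test). mt-Cytb, the cytochrome of complex III, had 5138 and 5863 CPM, against 12866, 16229 and 19814 CPM. mt-Co1, the catalytic subunit of complex IV, had 11866 and 13491 CPM, against 20974, 29708 and 34674 CPM.

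For mt-Nd2, mt-Cytb and mt-Co1 control replicate 1 was the lowest control but stayed clear of the SE libraries, and it was nearer to SE in 2 of the 10 that fell. The measured values differed between transcripts of this genome. mt-Co2 had 18.9 and 21.5 CPM after SE, against 37.8, 61.4 and 38.5 CPM in controls, and mt-Co3 had 23.1 and 26.8 CPM, against 20.7, 28.5 and 19.4 CPM, levels far below those of mt-Co1. mt-Nd6, the 1 coding gene on the other strand, had 35.5 and 234 CPM, against 208, 912 and 909 CPM, so that SE replicate 2 overlapped with control replicate 1. mt-Co2, mt-Co3 and mt-Atp6 have near-identical copies in the nuclear genome and may share reads with them, so their counts are uncertain. Removing the mitochondrial genome from the library sizes left 0 calls with 5 libraries and 2057 in batch G317.

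**Figure D3:**
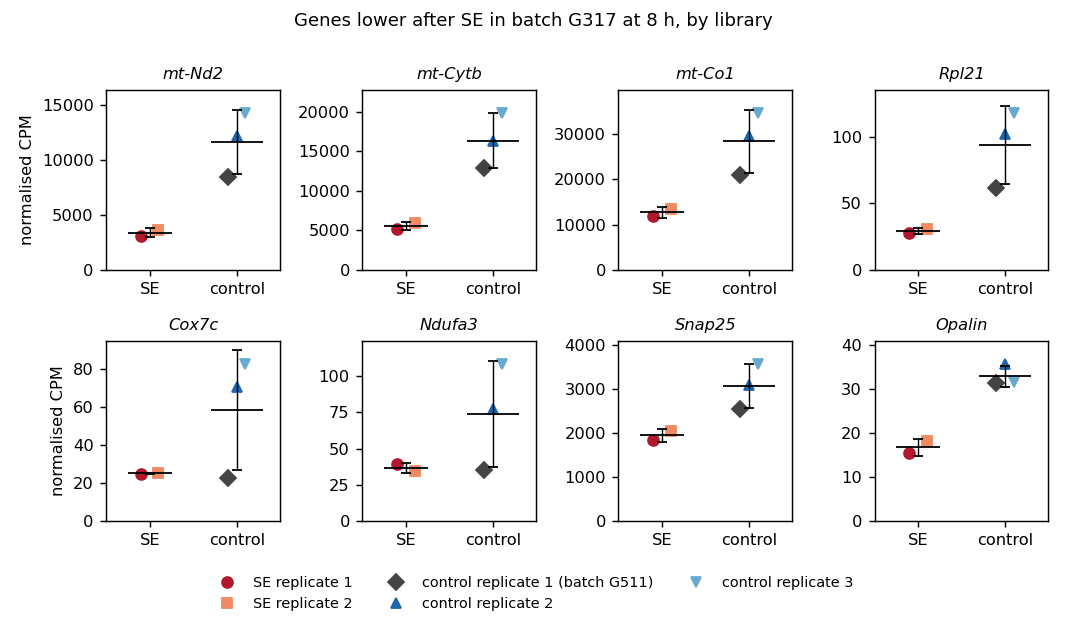
Normalised counts (CPM, vertical axes starting at 0) of 8 genes that fell within batch G317, in the 2 SE and 3 control libraries. Points are single mice, horizontal lines are group means and bars are ± 1 SD. For mt-Nd2, mt-Cytb, mt-Co1, Rpl21, Snap25 and Opalin all controls were above both SE mice, while for Cox7c and Ndufa3 control replicate 1 (22.3 and 35.4 CPM) lay below or between them.

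Calls among nuclear genes of oxidative phosphorylation were mostly lower, and control replicate 1 lay with the SE libraries for most of them. Of 37 complex I subunits 17 fell and 2 rose, of 11 complex IV subunits 8 fell and 0 rose, of 16 ATP synthase subunits 7 fell and 0 rose, and of 14 subunits of complexes II and III 5 fell and 0 rose. Control replicate 1 was nearer to SE for 18 of 19 called complex I genes, 8 of 8 complex IV genes and 7 of 7 ATP synthase genes, and both SE libraries were below all 3 controls for only 4, 2 and 0 of those lists. Cox6a1, a complex IV subunit, had 152 and 134 CPM after SE, against 136, 368 and 445 CPM in controls (log2 fold change -1.51 ± 0.13 in batch G317, -1.14 ± 0.42 in 5 libraries). A few members stood clear of every control. Uqcrb, a complex III subunit, had 29.2 and 35.0 CPM, against 57.9, 76.4 and 66.9 CPM (-1.15 ± 0.14 in batch G317), and Ndufs6, a complex I subunit, had 21.8 and 21.5 CPM, against 28.7, 57.5 and 52.2 CPM.

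Calls among ribosomal protein genes were mostly lower too, with the reserve that many have processed pseudogenes and share reads with them, which makes their counts uncertain. Of 46 large-subunit genes 21 fell and 1 rose, of 32 small-subunit genes 14 fell and 1 rose, and both SE libraries were below all controls for 13 and 9. Rpl21 had 27.8 and 31.0 CPM after SE, against 61.3, 103 and 118 CPM in controls (log2 fold change -1.67 ± 0.28 in 5 libraries), and Rps24 had 68.0 and 72.8 CPM, against 127, 130 and 161 CPM (-0.98 ± 0.17). Rps26 had 47.7 and 43.7 CPM, against 54.4, 164 and 201 CPM, with control replicate 1 nearer to the SE libraries than to the other controls. Of 74 mitochondrial ribosomal proteins tested 14 fell and 0 rose, and both SE libraries were below all controls for 19.

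Gene length moved with these lists. The median exonic length of the tested genes was 2119.5 bases in the energy lists and 1830 bases in the translation lists, against 3661 bases over all nuclear genes. For genes under 500 bases the median log2 fold change was -0.51 in 5 libraries and -0.76 in batch G317, with 4 genes higher and 51 lower of 306. For the second longest class of genes it was 0.05 and 0.09, with 439 higher and 229 lower of 5012. Relative to the mean of the controls, the shortest class stood at -0.41 and -0.37 in the SE libraries and at -0.31 in control replicate 1, against 0.05 and 0.31 in control replicates 2 and 3. The slope with length was therefore shared by both SE libraries and control replicate 1. With offsets for length in the fit, an alternative chosen after seeing the data, the batch G317 count was 773 higher (5.03%) and 1093 lower (7.11%). Complex I then had 4 genes higher and 11 lower (median -0.24 in place of -0.46), complex IV 1 and 5 (-0.35 in place of -0.72) and ATP synthase 1 and 6 (-0.18 in place of -0.38). Large ribosomal proteins had 5 higher and 16 lower (-0.25 in place of -0.44) and small ones 2 and 8 (-0.13 in place of -0.45). NRF2 and glutathione genes had 4 higher and 3 lower, endoplasmic reticulum chaperones 2 and 1, and glutamate receptors 0 and 7. The offsets were not applied to the mitochondrial genome, for which they give no information.

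**Figure D4:**
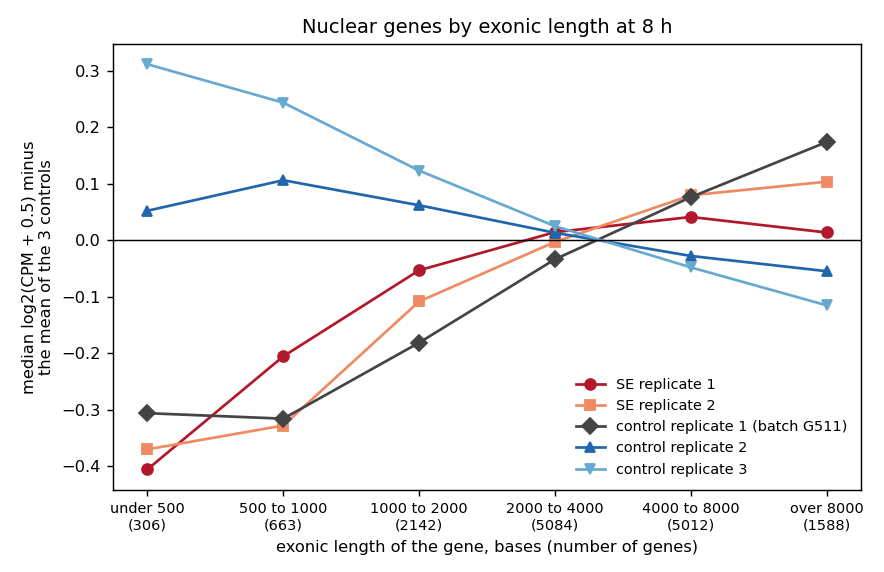
Median of nuclear genes by class of exonic length (horizontal axis, bases, with the number of genes), per library, as log2(CPM + 0.5) minus the mean of the 3 controls. Short genes were low and long genes high in both SE libraries and in control replicate 1 (-0.41, -0.37 and -0.31 under 500 bases), and the other way round in control replicates 2 and 3.

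Several of the genes with the smallest p in the 5 libraries belong to no pathway above. The smallest of all was that of Gm15564, a predicted gene named here after its values were seen, with 10.7 and 16.7 CPM after SE, against 1.14, 0.71 and 0.28 CPM in controls. Hnrnpa0, an RNA-binding protein that stabilises cytokine and cell cycle mRNAs, had 117 and 110 CPM after SE, against 61.5, 59.1 and 62.9 CPM in controls, a log2 fold change of 0.89 ± 0.14 with little spread. Pex5, the import receptor of peroxisomes, had 60.8 and 57.5 CPM, against 36.6, 32.8 and 29.3 CPM, and Cyb561, an electron carrier of secretory granules, had 76.0 and 67.9 CPM, against 44.6, 45.9 and 35.5 CPM. S100a1, a calcium-binding protein, had 20.5 and 25.8 CPM, against 41.2, 67.9 and 65.9 CPM, and the spliceosome gene Cwc15 had 24.8 and 29.3 CPM, against 48.9, 53.8 and 60.2 CPM. Slc38a2, a carrier of neutral amino acids (215 and 285 CPM, against 160, 101 and 95.7 CPM), and Slc5a3, a carrier of myo-inositol (77.4 and 70.0 CPM, against 53.5, 37.3 and 35.9 CPM), rose within batch G317. Skil, Tnpo1 and Fam126b rose there by log2 fold changes of 1.08, 1.06 and 1.1 but were nearly as high in control replicate 1 (110, 90.3 and 155 CPM) as after SE. Lars2 had 929 and 1669 CPM after SE, against 56.5, 228 and 320 CPM in controls, but this gene carries a stretch like mitochondrial ribosomal RNA and its counts are uncertain.

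Synaptic genes were lower in part. Of 41 synaptic vesicle and active zone genes 3 rose and 10 fell, and both SE libraries were above all controls for 2 and below them for 14. Snap25, a t-SNARE of vesicle fusion, had 1834 and 2050 CPM after SE, against 2550, 3087 and 3566 CPM in controls (log2 fold change -0.66 ± 0.18 in 5 libraries, -0.78 ± 0.11 in batch G317). The vesicle SNARE Vamp2 had 1033 and 926 CPM, against 1159, 1418 and 1750 CPM (-0.56 ± 0.19). For Syn1, synapsin I, control replicate 1 lay close to the SE libraries, with 615 and 584 CPM after SE, against 645, 1243 and 1496 CPM in controls. Of the 13 genes called in this list, control replicate 1 was nearer to SE in 11.

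Receptors and postsynaptic genes leaned the same way. Of 28 glutamate receptor genes 4 fell (Cacng3, Grin2d, Cacng2 and Grin1) and 0 rose, and of 30 postsynaptic genes 5 fell and 2 rose. Cacng3, an auxiliary subunit of AMPA receptors, had 57.8 and 55.4 CPM after SE, against 67.6, 98.6 and 120 CPM in controls (log2 fold change -0.96 ± 0.12 in batch G317). Shank1 had 724 and 724 CPM, against 672, 1336 and 1911 CPM, and overlapped. Among 21 GABA genes 1 rose (Gad1) and 1 fell (Gabra5), and 0 were above and 7 below all controls.

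Ion channels showed calls both ways. Of 44 potassium channel genes 3 rose and 5 fell, and of 38 calcium, sodium and HCN channel genes 4 rose and 4 fell. Over all genes tested 5.71% rose and 7.72% fell, so the channel counts lay near these shares. Kcnh7, an ERG-type channel, had 54.8 and 70.4 CPM after SE, against 122, 94.0 and 92.6 CPM in controls (log2 fold change -0.57 ± 0.13 in batch G317), and its groups did not overlap. Scn4b, a sodium channel subunit, had 33.3 and 27.4 CPM, against 27.4, 12.6 and 10.5 CPM.

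Neuropeptide genes fell or did not pass. Of 17 tested 6 fell (Cck, Npy, Chgb, Sst, Scg5 and Penk) and 0 rose, with a median log2 fold change of -0.30 in 5 libraries and -0.45 in batch G317. With length offsets 3 stayed lower, and Penk (adjusted p = 0.065), Scg5 (0.134) and Sst (0.346) did not pass the quasi-likelihood test. Penk, the enkephalin precursor, had 17.8 and 13.9 CPM after SE, against 25.3, 23.4 and 31.7 CPM in controls (-0.82 ± 0.22), and the granule protein Chgb had 420 and 456 CPM, against 573, 621 and 651 CPM (-0.54 ± 0.11). Both stayed below every control. Npy had 26.2 and 19.9 CPM, against 25.4, 45.7 and 57.6 CPM, Cck had 219 and 168 CPM, against 144, 375 and 441 CPM, and Sst had 191 and 130 CPM, against 90.3, 241 and 307 CPM, and these 3 overlapped with control replicate 1.

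Markers of other cell types were examined for their whole lists. Of 16 microglial markers 3 fell (Olfml3, P2ry12 and Tyrobp) and 0 rose, both SE libraries were below all controls for 6, and the summed level was 353 and 309 CPM after SE, against 374 to 430 CPM in controls. P2ry12, the ADP receptor of resting microglia, had 21.4 and 14.9 CPM, against 41.1, 32.6 and 33.7 CPM (log2 fold change -1 ± 0.22 in 5 libraries, adjusted p = 0.029 in the likelihood ratio test), and Olfml3 had 10.7 and 8.98 CPM, against 17.3, 19.5 and 21.3 CPM (-0.99 ± 0.22). Of 12 markers of infiltrating myeloid cells only 4 had enough counts to be tested, and Ly6g was at 0 in all 5 libraries. The 1 call in that list was lower: Cd68, a lysosomal protein of phagocytes, had 6.93 and 5.95 CPM after SE, against 6.95, 15.9 and 18 CPM in controls (-1.42 ± 0.24 in batch G317), with control replicate 1 next to the SE libraries.

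Of 14 oligodendrocyte and myelin markers 4 fell (Opalin, Sox10, Mbp and Ermn) and 0 rose, and the summed level was 5899 and 7012 CPM, against 7617, 8438 and 7872 CPM. Opalin, a membrane protein of myelinating cells, had 15.4 and 18.1 CPM, against 31.4, 35.7 and 31.6 CPM (log2 fold change -0.97 ± 0.19). Of 9 mural cell markers 2 fell (Acta2 and Vtn), and the smooth muscle actin Acta2 had 12.2 and 8.50 CPM, against 24.1, 21.7 and 19.4 CPM (-1.09 ± 0.24). Neither gene overlapped between the groups, whereas homeostatic astrocyte markers gave 1 rise (Fgfr3) and 2 falls of 14 and pan-neuronal markers 0 rises and 3 falls of 10. Markers of dentate granule cells gave 2 rises and 0 falls of 10, and CA1 markers 3 rises and 0 falls of 8. These small counts stand against 5.71% higher and 7.72% lower over all genes tested.

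Choroid plexus, a neighbouring tissue, varied by library. The summed level of 20 markers was 4914 and 4918 CPM after SE, against 1038 CPM in control replicate 1, 5781 CPM in control replicate 2 and 1808 CPM in control replicate 3. All 20 markers had a positive log2 fold change (median 0.71 in 5 libraries and 0.28 in batch G317), and 0 were called. The water channel Aqp1 had 29.4 and 24.3 CPM, against 4.61, 19.2 and 5.60 CPM. The part of this tissue in other results was not tested.

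The study named 21 genes for this time, of which 20 could be tested here. Since the study chose them on these libraries, their direction is not independent evidence. Within batch G317, 8 rose (Cdkn1a, Tfrc, Bach1, Mafg, Fkbp5, Cry1, Stat3 and Ptpn11) and 5 fell (Eif2s2, Gstm1, Mgst3, Cat and Mapk3), and both SE libraries were above all controls for 12 and below them for 6. Eif2s2, a subunit of the initiation factor eIF2, had 29.8 and 40.6 CPM after SE, against 47.9, 51.0 and 65.5 CPM in controls (log2 fold change -0.71 ± 0.18 in batch G317). Cebpa, a transcription factor of the C/EBP family, had 11.8 and 11.4 CPM, against 6.55, 9.19 and 4.50 CPM, and did not pass. Mapk3, the kinase ERK1, had 137 and 109 CPM, against 127, 193 and 228 CPM, and overlapped with control replicate 1. Creb5 had 1.1 and 2.07 CPM, against 3.74, 4.51 and 3.95 CPM, and Pmf1 had 0.44 and 1.56 CPM, against 1.74, 3.09 and 5.05 CPM, and neither passed. Alox12e had 0 CPM in both SE libraries, against 0.13, 0.44 and 0.28 CPM, and was too low to be tested.

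The same genes at the other times are set side by side, without a test of the difference. The 1-h libraries come with their own controls, and the 36-h and 120-h libraries share 3 control mice. No library of the other times carries the batch label G317, so time and batch cannot be told apart. In the order 1, 8, 36 and 120 h, Fos had log2 fold changes of 5.20, 2.15, -0.79 and 0.58, and Fosb had 4.09, 1.82, -0.52 and -0.28. In contrast, Nptx2 had 0.24, 1.78, -0.02 and -0.44, Bdnf 0.06, 0.88, 0.10 and -0.22, and Osmr 0.17, 1.52, 0.19 and -0.43, so that these 3 genes had their highest value at 8 h. Gfap had 0.10, 0.72, 1.37 and 0.33 and C4b 0.03, 0.96, 1.14 and 0.23, with the highest value at 36 h. The median over the mitochondrial genome was 0.15, -1.23, -0.10 and 0.06 in the same order. The median of the immediate-early list was 2.34 at 1 h and 0.29 at 8 h.

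**Figure D5:**
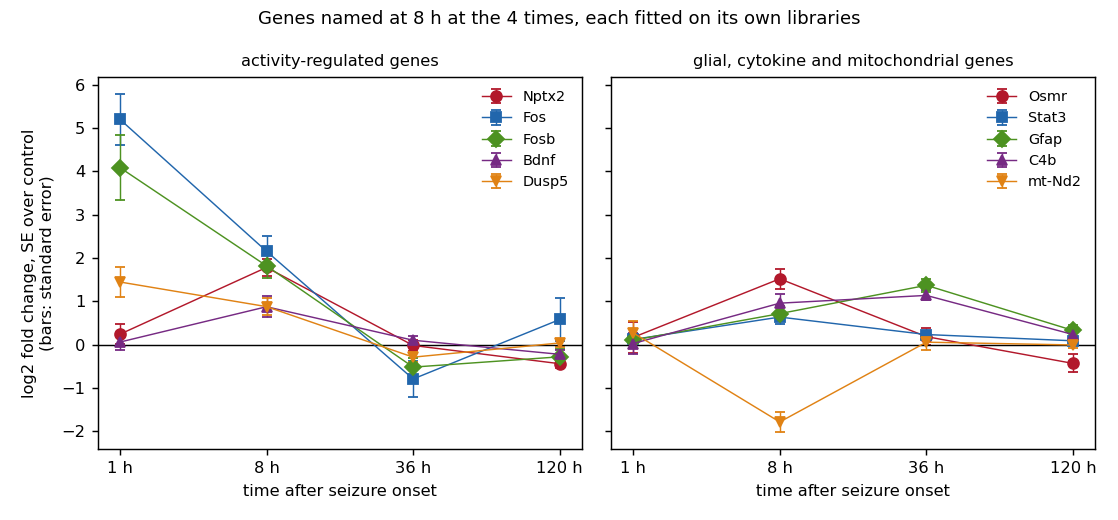
Log2 fold change of SE over control (vertical axis, bars are ± 1 standard error of the estimate) of 10 genes at 1, 8, 36 and 120 h, each time fitted on its own libraries and drawn at equal spacing. Time and batch cannot be told apart, since no library of the other times carries the label G317. Fos and Fosb were highest at 1 h (5.20 and 4.09), Nptx2, Bdnf and Osmr at 8 h (1.78, 0.88 and 1.52), Gfap and C4b at 36 h (1.37 and 1.14), and mt-Nd2 was low at 8 h alone among these times (-1.78).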

How the data were processed

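Messenger RNA of the left hippocampus was sequenced from poly(A) stranded libraries, 1 per mouse, made from 200 ng of total RNA (RNA integrity above 7.9) with 53 cycles per end. Per the labels and the study's methods, the authors trimmed the reads, aligned them with HISAT2 2.1.0 to NCBIM37 (mm9) and deposited raw counts per gene from HTSeq, with no normalization. Their annotation release is stated, but identifiers of other releases occur in the table, so names were taken from Ensembl 65 (33068 of 43629 identifiers, with 10561 left unnamed), and coordinates are NCBIM37 unless a promoter window is given.

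The deposited counts were tested with edgeR 4.0.16 (R 4.3.3): filterByExpr, TMM scaling, a quasi-likelihood fit of SE against control, two-sided, and Benjamini-Hochberg adjustment over all genes tested, with a threshold of 0.05. The fit was made on all 5 libraries (15610 genes) and on batch G317 alone (15369 genes, without control replicate 1). Adjusted p values in the text come from these fits unless the likelihood ratio test of edgeR is named. DESeq2 1.42.0, other scalings and filters, covariates, thinning to the smallest total and leaving out each library were the alternatives. CPM values use TMM-adjusted library sizes, and log2(CPM + 0.5) was used in the plots of medians. The library totals ran from 8503816 to 28465548 counts. Each group holds separate mice, 2 after SE and 3 controls. The scripts were tested on simulated data.

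The members and the 59 gene lists (1219 genes) were chosen with earlier results of these data known, as were the times set side by side. Genes were named by rules. Some had the smallest p without overlap between the groups, in the 5 libraries or in batch G317 alone. Others were genes the study named for this time, or up to 6 members of each list with the smallest p in batch G317. Members of marker sets or of lists of 13 or fewer genes could also be named. Some genes, among them Gm15564, Klf10, Ptgs2, Syt4, Atp6v0a1 and Atp6v1a, fall outside these rules or were picked after their values were seen. Replicate numbers were not used to pair mice. Some genes are not reported here.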

Additional observations from a re-analysis of the deposited data

Results flagged for a closer look

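Among 124 genes named in the text, some had every SE library on one side of all controls at 8 h and on the other side at another time. Many of the 124 were picked for not overlapping at 8 h. The share of such genes over all genes tested was not measured. With so few libraries a group, such separations also arise by chance. The difference between times was not tested and cannot be told apart from batch, and the libraries of 36 and 120 h share control mice. Against 1 h this held for Nr4a2 (8-h log2 fold change -0.62), Trf (-1.19) and Slc11a2 (0.43). Trf was low at 1 h too, with 2.02 to 3.36 CPM after SE, against 1.61 to 1.68 CPM in controls.

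Against 36 h the genes higher at 8 h were Fosb (1.82), Fkbp5 (0.86), Fgfr3 (0.59), Ptpn11 (0.54), Per3 (0.45) and Slc11a2 (0.43). Those lower at 8 h were S100a1 (-1.32), Cd68 (-1.08), Olfml3 (-0.99), Penk (-0.77) and Sc4mol (-0.61), which include a microglial marker and an enzyme of sterol synthesis.

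Against 120 h the genes higher at 8 h were Nptx2 (1.78), Inhba (1.46), Bdnf (0.88), Pex5 (0.84), Sorcs3 (0.67), Fam126b (0.65), Mafg (0.60) and Homer1 (0.59), of which Nptx2, Inhba, Bdnf, Sorcs3 and Homer1 are effectors of neuronal activity. Those lower at 8 h were Rpl21 (-1.67) and Hlf (-0.49).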

How the results depend on the processing

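The count of 0 genes with 5 libraries depended on the test and on the batch. It became 89 with the likelihood ratio test, 96 with DESeq2, 6 with library size alone (2 higher, 4 lower), 343 without a filter on low counts (90 higher, 253 lower), 2111 with batch as a covariate (934 higher, 1177 lower), 2250 with batch and sex as covariates (984 higher, 1266 lower), 2065 in batch G317 alone and 423 with all 19 libraries in 1 fit (179 higher, 244 lower). Leaving out 1 library gave from 0 to 2065 calls, the highest without control replicate 1. In batch G317 the count of 2065 lay between 1105 and 3200 when 1 library was left out. With the replicate number as a block the count was 31 (12 higher, 19 lower), but deviations of same-numbered mice did not correlate above 0.11 in size, and the number is not given as a shared animal or day. The cause of these changes was not tested.

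Among the genes named, the sign of the log2 fold change turned for Jund, Grin1, Sst and Mt2 with 5 libraries and for mt-Co3 and Mt2 in batch G317, none of them called in that fit. Jund was at 0.0338 with library size alone, at 0.2996 with the replicate block, and between -0.4678 and 0.1609 when 1 library was left out. Grin1 was at 0.0204 and Sst at 0.0922 with the replicate block, and Sst was at 0.0389 with length offsets. Mt2, at 0.0012 with 5 libraries, was at -0.0054 with DESeq2, -0.0052 with RLE factors, -0.0041 without the mitochondrial genome, -0.0678 when thinned, -0.0418 with sex, -0.334 with batch, -0.3363 with both, -0.3398 in batch G317 (there 0.2511 with length offsets), and between -0.3398 and 0.2189 when 1 library was left out. In batch G317 mt-Co3 was at -0.0594 when thinned, and between -0.1902 and 0.3661 when 1 library was left out. With 2 SE mice, 1 of them at 8503816 counts, genes under a few CPM such as Lcn2 and Maff rest on few counts.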

Other observations

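Vacuolar ATPase, which acidifies synaptic vesicles and lysosomes, gave calls both ways within batch G317: of 17 subunits tested 4 rose (Atp6v1a, Atp6v1b2, Atp6v1h and Atp6ap2) and 4 fell (Atp6v0a1, Atp6v1d, Atp6v1f and Atp6v1g2), and the summed level was 4277 and 4014 CPM after SE, against 3985, 4322 and 4591 CPM in controls. Of 18 glycolytic genes 1 rose (Pgk1) and 5 fell (Hk1, Gpi1, Aldoc, Gapdh and Ldhb). Gapdh has processed pseudogenes, and its counts are uncertain. Of 31 splicing factors 4 rose (Srsf6, Srsf7, Rbm39 and Hnrnpa0) and 0 fell, and both SE libraries were above all controls for 5 and below them for 5. Markers of CA2 and CA3 pyramidal cells gave 0 calls of 9 in batch G317. The markers of neighbouring cortex and thalamus summed to 328 and 336 CPM after SE, against 459, 389 and 356 CPM in controls, with 2 of 12 lower (Rorb and Tbr1).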
